A study of Mus musculus with 2 samples.

Results

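The 9 heat shock protein genes Hspa1a, Hspa1b, Dnajb1, Hsph1, Hsp90aa1, Hspa8, Hsp90ab1, Hspd1 and Hspe1 were followed through immune cells sorted from mouse tumours. They were taken by gene symbol, each symbol matched 1 row, and they are 9 of the 32285 genes in the deposited matrices. The cells came from mice bearing B16-F10 tumours, a transplantable mouse melanoma line, and were sorted for CD45, the surface protein of nearly all blood-derived cells. One group received vehicle and is called Control. The other received DOPAC, a name that the labels do not spell out and whose dose, route and duration are not given in the sources used here. Both groups were labelled wild type, with no strain or age. The design names 4 mice per group. Each treatment has a single droplet RNA library without a tag for the mouse, so it counts as 1 sample here. No difference between the groups can therefore be tested, and every interval below is an exact 95% interval that covers counting error only.

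Heat shock proteins are chaperones that bind unfolded proteins, keep them from clumping and help them to refold. The HSP70 proteins hold short stretches of a client protein, co-chaperones of the DNAJ family deliver clients to them, and nucleotide exchange factors release them. HSP90 proteins finish the folding of kinases and receptors. In stressed cells the transcription factor HSF1 binds heat shock elements, inverted repeats of the letters GAA and TTC, and turns on the inducible members within minutes, while other members are made at all times. Enzyme digestion, warming and sorting of tissue are known to induce the same genes, and immune cells also raise many chaperones when they grow and divide.

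The inducible members were Hspa1a (ENSMUSG00000091971, chr17:34969190-34972156) and Hspa1b (ENSMUSG00000090877, chr17:34956436-34959238), which encode nearly identical inducible HSP70 proteins. Each has a single exon. Dnajb1 (ENSMUSG00000005483, chr8:83608193-83612653) encodes the DNAJ partner of HSP70. Hsph1 (ENSMUSG00000029657, chr5:149614287-149636376) encodes its nucleotide exchange factor HSP110, and Hsp90aa1 (ENSMUSG00000021270, chr12:110690605-110702728) the inducible cytosolic HSP90. The constitutive cytosolic members were Hspa8 (ENSMUSG00000015656, chr9:40800984-40810087), the everyday HSP70, and Hsp90ab1 (ENSMUSG00000023944, chr17:45567775-45573271), the everyday HSP90. Hspd1 (ENSMUSG00000025980, chr1:55077835-55088243) and Hspe1 (ENSMUSG00000073676, chr1:55088132-55091307) encode the mitochondrial chaperonin HSP60 and its lid HSP10. All are protein-coding genes, and positions are those of the GENCODE annotation of GRCm38.

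The letters before the start sites differed between members, and the stretches that carry the heat shock element letters are shown because HSF1 is known to bind such letters. RefSeq start sites of GRCm38.p6 were used, with windows from 250 bases before to 50 bases after each start, and 6 of the 9 members had an entry. The motifs searched were GAANNTTC and TTCNNGAA, each of which is its own reverse complement, so that both strands were covered, and matches of the motifs may overlap. The 250 bases before the start of Hspa1a (chr17:34972157-34972406, minus strand) and of Hspa1b (chr17:34959239-34959488, minus strand) are printed below with the GAANNTTC match in capitals, and the stretch of 24 bases before the start of Hspe1 (chr1:55088056-55088079, plus strand) with its 3 overlapping matches in capitals.
Hspa1a: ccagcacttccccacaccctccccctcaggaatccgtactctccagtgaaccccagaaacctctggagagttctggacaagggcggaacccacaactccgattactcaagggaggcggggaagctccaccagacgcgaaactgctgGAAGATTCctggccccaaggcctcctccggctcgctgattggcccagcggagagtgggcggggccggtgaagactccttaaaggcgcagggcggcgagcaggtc
Hspa1b: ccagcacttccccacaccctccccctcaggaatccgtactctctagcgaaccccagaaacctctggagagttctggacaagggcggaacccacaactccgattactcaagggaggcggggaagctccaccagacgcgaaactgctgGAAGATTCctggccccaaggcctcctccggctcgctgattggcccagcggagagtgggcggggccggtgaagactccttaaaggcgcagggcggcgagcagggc
Hspe1: ccgTTCTAGAACCTTCCGGAAggc

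The Hspa1a and Hspa1b stretches were identical at 247 of 250 bases, and both held GAAGATTC from 104 to 97 bases before the start. Their coding sequences were identical at 1916 of 1926 aligned bases, or 99.5%. Their 3′ untranslated regions, of 810 and 643 bases, were identical at 51.4% of aligned bases. Reads from the coding part therefore cannot be assigned between the pair with certainty, and which end of the transcript was read is not given in the sources used here, so the sum of both genes is given beside each. The gene bodies lie 9951 bases apart. Hspd1 and Hspe1 point away from each other, their gene bodies overlap by 112 bases, and the stretch printed for Hspe1 also lies in the annotated gene body of Hspd1 and in the second of its windows. Both windows of Hsph1 held 1 GAANNTTC and 2 TTCNNGAA matches, of which only 1 TTCNNGAA match lay before the start. Neither window of Dnajb1 held a match. Of 32851 windows in the table, 7.86% held GAANNTTC, 8.52% held TTCNNGAA and 15.1% held either. A match is a description of the letters only.

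The Control matrix held 9629 cell barcodes and the DOPAC matrix 10777, and 8105 and 9280 cells were kept. A kept Control cell had a median of 9320 unique molecular identifiers (UMIs, one for each captured RNA molecule), and a kept DOPAC cell 3592. Cells were put into classes by UMIs of marker genes, such as Cd3 genes for T cells or C1q genes for macrophages, and 8.88% of Control and 27.8% of DOPAC cells passed no gate. Levels are UMIs of a gene as CPM, that is, scaled to a total of 1000000 UMIs per class, and 12 classes with at least 50 cells in both libraries were compared. Some facts of the libraries touch every comparison. Cd3 genes stood at 8.02 CPM in Control and 56.8 CPM in DOPAC mature dendritic cells, which should lack them. Haemoglobin genes took 0.0979% of Control and 0.000115% of DOPAC UMIs. The cell type label reads lymphocyte, yet 1078 Control and 471 DOPAC cells passed the monocyte gate. The digestion protocol names colon, while the tissue label and title name tumour. The files share 32 barcodes, of which 24 were kept in both. No class of cells is known to lack these chaperones, so no class gives a background level for them.

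The summed level of Hspa1a and Hspa1b stood higher in Arg1 and C1q macrophages, monocytes and type 2 dendritic cells than in the T, NK and B classes of both libraries, except gamma delta T cells in Control. The sum was 637 CPM (617 to 658) in Control and 692 CPM (618 to 772) in DOPAC macrophages with Arg1, the arginase of tumour macrophages. Monocytes had 448 CPM in Control and 513 CPM in DOPAC, and C1q macrophages without Arg1 or Cxcl9 had 366 and 618 CPM. Type 2 conventional dendritic cells (cDC2), which present antigen to CD4 T cells, had 288 and 327 CPM. Hspa1b alone did not keep this order in Control, at 133 CPM in cDC2 and 139 CPM in 44 checkpoint-positive CD8 T cells.

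The other classes were spread widely. Myeloid cells outside the narrower gates had 737 CPM in 95 Control and 382 CPM in 25 DOPAC cells. Cxcl9 macrophages had 167 CPM in Control and 478 CPM in DOPAC, and type 1 dendritic cells 195 and 433 CPM. Mature dendritic cells had 106 and 59.2 CPM. Gamma delta T cells, which use another T-cell receptor, had 443 CPM in Control, where 10 of 118 cells held 92.8% of the UMIs, and 33.7 CPM in 24 DOPAC cells. Natural killer (NK) cells had 160 CPM in Control (150 to 170) and 46.8 CPM in DOPAC (39.1 to 55.5). All CD8 T cells together, 557 in Control and 2669 in DOPAC, had 161 and 72.3 CPM. Regulatory T cells, which hold Foxp3 and restrain other T cells, had 14.2 CPM in Control, the lowest sum of the 20 Control classes described, and 254 CPM in DOPAC. The plot of the pair by class shows Arg1 macrophages and monocytes near the top in each library. Cells outside every gate were also high, at 324 CPM of Hspa1a in Control and 231 CPM in DOPAC, against 158 and 109 CPM over all kept cells.

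**Figure D1:**
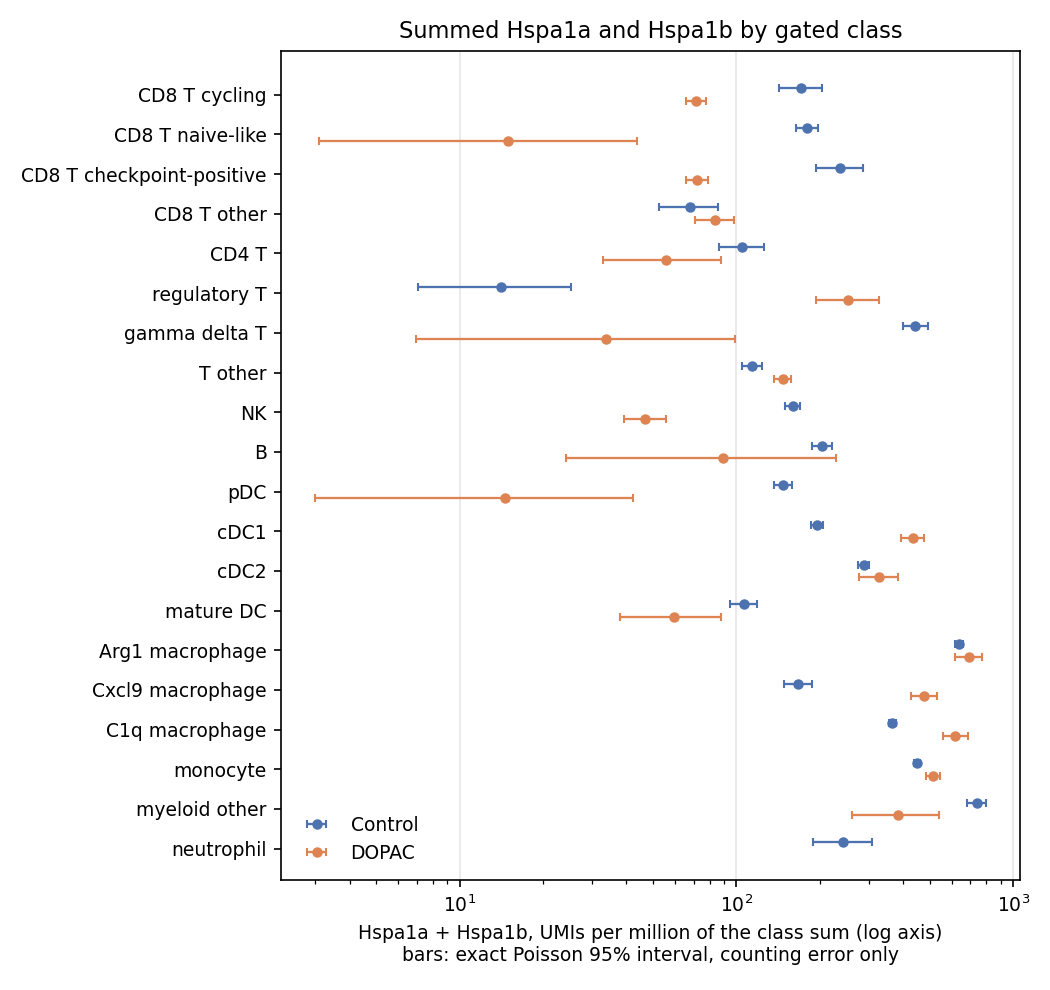
CPM of the sum of Hspa1a and Hspa1b on a log axis for each class, with 1 point per library and exact Poisson 95% intervals as bars (neutrophils in Control only). Arg1 macrophages, at 637 CPM in Control and 692 CPM in DOPAC, lie above NK cells, at 160 and 46.8 CPM.

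The order of classes was kept between the libraries for some members only. Over the 19 classes described in both, Spearman's rho between Control and DOPAC levels was 0.853 for Hspa8, 0.675 for Hspe1 and 0.584 for Hsp90ab1. It was 0.581 for Hspa1a and 0.242 for Hspa1b. For Hsph1 it was 0.149 and for Dnajb1 0.107. The points share a library within each axis and some rest on few cells. Most neighbours in the order of a member could not be told apart: for Hspa1a in Control 13 of 19 neighbouring pairs had a ratio interval that held 1, and for Dnajb1 in DOPAC 18 of 18.

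A few cells carried most of the Hspa1a and Hspa1b UMIs in monocytes of both libraries and in Control NK cells. Among Control monocytes, 85 of 1078 cells (7.88%) had at least 10 UMIs of the pair, and these held 88.6% of the pair's UMIs. Among DOPAC monocytes, 27 of 471 cells (5.73%) held 82.8%. In NK cells 29 of 932 Control cells (3.11%) held 76.4%, and 4 of 782 DOPAC cells (0.512%) held 38.2%. The cut of 10 UMIs was applied to unthinned cells. Median UMIs per cell were 5889.5 in Control and 2879 in DOPAC NK cells, and 11228.5 and 4311 in monocytes. A shallower cell reaches the cut less easily, so these shares cannot be compared between the libraries. The everyday HSP70 gene Hspa8 was found in more cells: 99.1% of Control monocytes had a UMI of it, against 42.5% for the pair. Its level there was also higher, at 1227 CPM against 448 CPM, and such a share rises with level.

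The spread between cells was also measured after each cell was randomly thinned to 1000 UMIs to remove the gap in depth. The variance over the mean, which is 1 for pure counting, was taken for the inducible set Hspa1a, Hspa1b, Dnajb1 and Hsph1 and for the constitutive pair Hspa8 and Hsp90ab1. Over the 12 classes in both libraries, the inducible set ran from 0.94 to 14.0 with a median of 4.75, and the constitutive pair from 1.25 to 1.997 with a median of 1.55. The inducible set had the higher value in 22 of 24 cases. The exceptions were Control regulatory T cells (0.94 against 1.90) and the remaining Control CD8 T cells (1.20 against 1.55), and in DOPAC mature dendritic cells the values were close, at 1.32 and 1.28. Monocytes had the widest spread of the DOPAC classes, at 14.0, and 11.1 in Control. The highest monocyte had 42 inducible UMIs of its 1000 in Control and 39 in DOPAC, while 83.1% and 83.0% of monocytes had none. The sets also differ in level, with means of 0.0685 to 1.04 inducible and 1.43 to 2.59 constitutive UMIs per thinned cell.

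**Figure D2:**
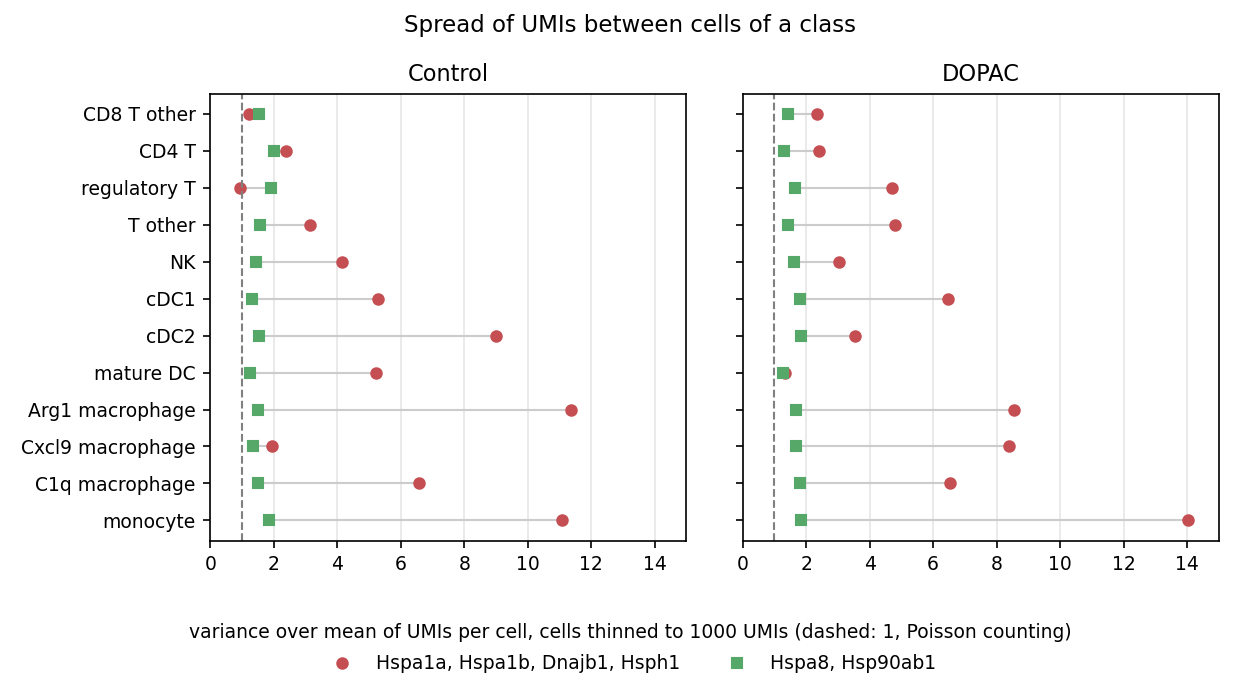
Variance over mean of UMIs per cell, after thinning to 1000 UMIs per cell, in each of the 12 classes (rows) and each library (panels), with a dashed line at 1 for pure counting. Circles, for Hspa1a, Hspa1b, Dnajb1 and Hsph1, run from 0.94 to 14.0, and squares, for Hspa8 and Hsp90ab1, from 1.25 to 1.997.

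Hspa1b, Hsph1 and Dnajb1 were more frequent in cells with Hspa1a than without it in 29, 27 and 26 of 32 class-by-library groups. By this count the other members were much alike: Hsp90aa1 and Hspa8 in 29 each, Hspe1 in 27, Hsp90ab1 in 26 and Hspd1 in 21. The intervals for Dnajb1 were apart in fewer groups. Among thinned Control monocytes with a UMI of Hspa1a, 48 of 106 (45.3%) also had Hspa1b, against 3.09% of those without. Among DOPAC monocytes it was 28 of 47 (59.6%) against 2.83%. In Control NK cells 17 of 34 cells with Hspa1a had Hspa1b, against 3.01% of the others, and 35.3% had Hsph1, against 2.78%. Dnajb1 was found in 8.49% (3.96 to 15.5) of Control monocytes with Hspa1a and 4.01% (2.87 to 5.44) of those without, and in 19.1% against 3.54% in DOPAC. In Control cDC2 it was 4.17% with and 5.32% without, and in Control NK cells 20.6% and 9.13%. Hsph1 was found in 20.8% of Control monocytes with Hspa1a and 1.54% of those without, and in 19.1% against 1.65% in DOPAC. In Control cDC2 Hsph1 was at 37.5% with and 1.77% without. Over the 32 class-by-library groups examined, the intervals with and without Hspa1a lay apart and higher with it in 24 for Hspa1b, 14 for Hsph1, 12 for Hsp90aa1 and 7 for Dnajb1. It was 6 for Hspa8, 3 for Hspe1, 1 for Hspd1 and 0 for Hsp90ab1. The split of reads between Hspa1a and Hspa1b is uncertain, and its part in their joint detection was not tested. Hsp90aa1 was found in 59.4% of Control monocytes with Hspa1a and in 42.4% of those without.

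Between the libraries, the abundant members stayed close and the inducible members other than Hsp90aa1 moved both ways. A ratio is DOPAC over Control, computed after adding 1 count to each sum, and is called higher or lower here from 1.5-fold on. Of 108 member-by-class pairs, 20 were higher in the DOPAC library, 12 were lower and 76 lay within 1.5-fold. Over all genes with at least 20 UMIs, 17.4% of the 112028 class-by-gene pairs were higher and 17.8% lower. With all members pooled, the counts of 20 and 12 are near these shares or under them, but the kinds of members differed. The 5 inducible members, Hsp90aa1 included, were higher in 18 of 60 pairs (30%) and lower in 9 (15%). Hspa8 and Hsp90ab1 were higher in 0 and lower in 0 of 24 pairs. Hspd1 and Hspe1 were higher in 2 and lower in 3 of 24. The difference between these kinds was not tested, nor was the part of their levels in it. Hsp90aa1, inducible but abundant, was higher in 0 and lower in 0 of 12 pairs. Over the classes, 28.7 to 40.2% of genes with at least 20 UMIs passed 1.5-fold either way, against 20.8 to 33.3% with at least 100. The median log2 ratio of all genes lay between -0.09 and 0.09 in the 12 classes.

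By member, Hspa1b was higher in 7 and lower in 2 of 12 classes, Hsph1 higher in 5 and lower in 1, Hspa1a higher in 4 and lower in 3, and Dnajb1 higher in 2 and lower in 3. Hsp90aa1, Hspa8 and Hsp90ab1 passed 1.5-fold in none of the 12. Hspd1 was higher in 1 and lower in 3 classes, and Hspe1 was higher in 1. The plot of ratios shows the split by member and class.

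**Figure D3:**
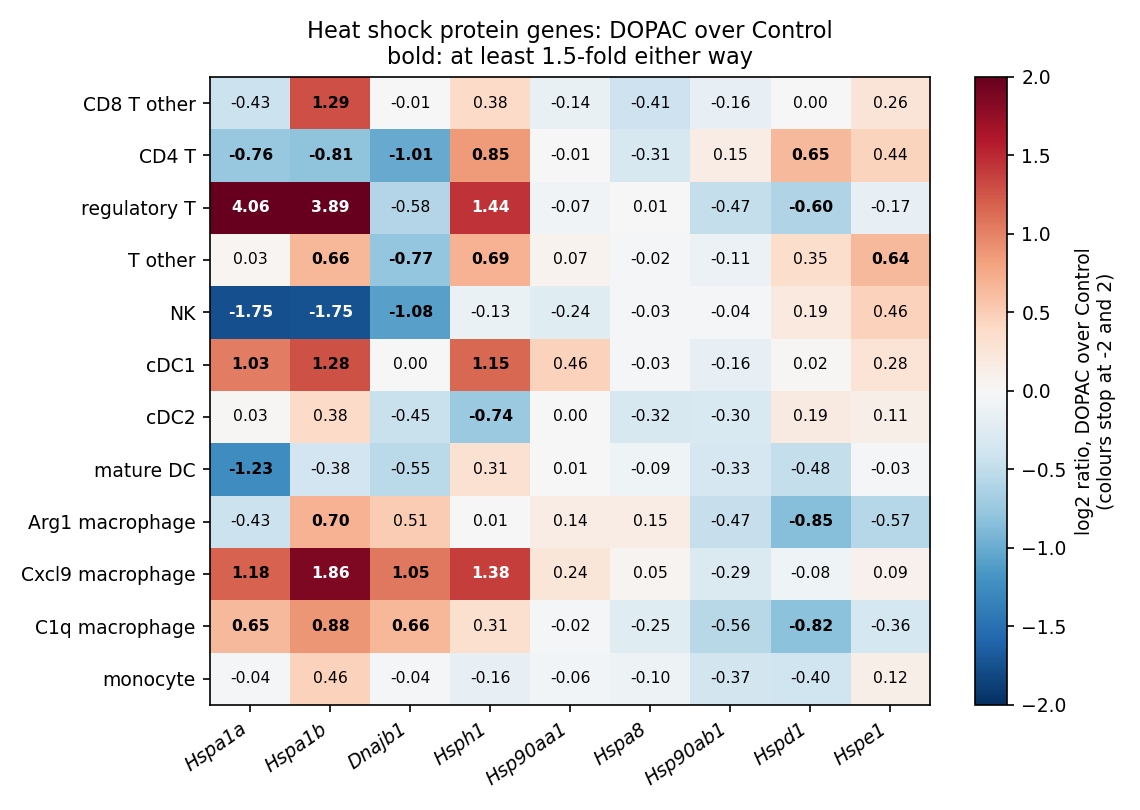
Log2 ratio of DOPAC over Control CPM for each of the 9 members (columns) in each of the 12 classes compared (rows), from 1 library per group. The inducible genes at the left run from -1.75 in NK cells to 4.06 in regulatory T cells for Hspa1a, while Hspa8 stays between -0.41 and 0.15.

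NK cells, lymphocytes that kill tumour cells without a rearranged receptor, had less of 3 inducible members in the DOPAC library. Hspa1a had 428 UMIs in 932 Control cells and 58 in 782 DOPAC cells, or 70.9 and 20.7 CPM. It was 3.37-fold lower (2.60 to 4.59). Hspa1b went from 88.6 to 26.1 CPM and was 3.36-fold lower (2.66 to 4.40). The ratio of Hspa1a lay at percentile 1.25 of the genes tested in NK cells and that of Hspa1b at 1.29. Dnajb1 went from 108 to 50.7 CPM and was 2.11-fold lower (1.77 to 2.57), whereas Hsph1 was at 55.5 and 50.3 CPM. The 3 of 9 members lower compare with 18.8% of 10733 genes lower in NK cells, and 0 members were higher against 11.9% of genes.

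The NK difference was seen in the number of cells as well as in the sum. A UMI of Hspa1a or Hspa1b was found in 179 of 932 Control cells (19.2%) and in 56 of 782 DOPAC cells (7.16%). After thinning it was 6.55% (5.04 to 8.33) and 2.57% (1.58 to 3.95). Leaving out the 3 NK cells with the most of these UMIs in each library moved the log2 ratio of the pair's sum from -1.76 to -1.92. Within tertiles of UMIs per cell, the inducible set stood at 357, 276 and 337 CPM in Control and at 197, 116 and 147 CPM in DOPAC, from the shallowest to the deepest tertile, so each DOPAC tertile lay below each Control one.

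Other RNAs moved in NK cells too. The 13 immediate-early genes listed, such as Fos, Jun and Egr1, which cells switch on within minutes of a stimulus, summed to 5730.3 CPM in Control and 1940 CPM in DOPAC, and 12 of 13 were lower. C1q genes of macrophages were at 119 and 54.99 CPM in the NK gate, genes of mature dendritic cells at 70.9 and 21.1 CPM, Cd3 genes at 20.05 and 62.5 CPM, and haemoglobin genes at 37.9 and 1.79 CPM. Markers of NK cells themselves were at 1055 and 954 CPM. The part of these differences in the chaperone result was not tested.

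Macrophages with Cxcl9, a chemokine gene induced by interferon gamma, had more of 4 of the 5 inducible members in the DOPAC library. Hsp90aa1, the other one, stayed within 1.5-fold, at 623 and 735 CPM. Hspa1a had 177 UMIs in 111 Control cells and 151 in 103 DOPAC cells, or 94.8 and 215 CPM. Hspa1b went from 72.3 to 263 CPM, 3.63-fold higher (2.90 to 4.58). Dnajb1 went from 33.7 to 69.7 CPM, and Hsph1 from 24.1 to 62.6 CPM. The 4 of 9 members higher compare with 13.1% of 7995 genes, and 0 were lower against 15.5%. The sum of Hspa1a and Hspa1b kept a log2 ratio of 1.25 without the top 3 cells of each library, against 1.52 with them. The change in Dnajb1 was not kept after thinning, where its log2 ratio was -0.25. Cells with a UMI of the pair were 44.1% in Control and 34.95% in DOPAC unthinned, and 6.31% (2.57 to 12.6) and 14.6% (8.39 to 22.9) thinned. In these cells the immediate-early genes summed to 4723 and 4912 CPM.

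Other macrophages and monocytes differed less. In C1q macrophages Hspa1a was at 198 CPM in Control and 310.0 CPM in DOPAC, Hspa1b at 168 and 308 CPM, and Dnajb1 at 52.7 and 81.7 CPM. There 3 members were higher against 21% of 11126 genes, and 1 was lower against 19.2%. The sum of the pair fell under the threshold without 3 cells of each library, with a log2 ratio of 0.48. In Arg1 macrophages Hspa1b was higher, at 252 and 408 CPM, while Hspa1a was at 385 and 284 CPM, which left the sum within 1.09-fold. That made 1 member higher against 20.2% of 10023 genes and 1 lower, Hspd1, against 19.3%. In monocytes, which enter the tumour from blood, 0 of 9 members were higher against 15.5% of 11220 genes and 0 lower against 15.1%. Hspa1a stood at 255 CPM in Control and 247 CPM in DOPAC monocytes.

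Dendritic cells split by type. In type 1 conventional dendritic cells (cDC1), which present tumour antigen to CD8 T cells, Hspa1a was at 99.8 CPM in 375 Control cells and 203 CPM in 128 DOPAC cells. Hspa1b went from 95.5 to 231 CPM and Hsph1 from 43.6 to 96.0 CPM, while Dnajb1 was at 60.2 and 59.4 CPM. With gates applied to thinned cells the log2 ratio of Hsph1 reversed, from 1.15 to -0.40. These 3 members higher compare with 20.6% of 10355 genes, and 0 were lower against 13.8%. As in other classes, few cells held these UMIs: 1 DOPAC cDC1 held 160 of the 438 UMIs of the pair, and without the top 3 cells the log2 ratio of the sum went from 1.15 to 0.53. In cDC2, Hsph1 alone was lower, at 47.4 and 26.3 CPM, which is 1 member against 18.8% of 9974 genes, with 0 higher against 19.4%. Hsph1 had 12 UMIs in DOPAC cDC2, with a ratio interval of 0.28-fold to 0.98-fold. This call was kept in 10 of 14 alternative processing settings, with log2 ratios up to -0.10. In mature dendritic cells, which carry antigen to lymph nodes, Hspa1a was lower, at 52.0 and 19.7 CPM with 8 UMIs in DOPAC. Its log2 ratio of -1.23 became 1.66 with gates applied to thinned cells. This was 1 member against 18% of 8188 genes, with 0 higher against 19.2%.

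Mature dendritic cells had less of several members than cDC2 in each library. Hspa1a was at 52.0 CPM against 155 CPM in Control cDC2, and at 19.7 CPM against 156 CPM in DOPAC cDC2. Hsp90aa1 was at 368 CPM in mature dendritic cells of both libraries, against 616 and 615 CPM in cDC2. Hspd1 was at 41.1 against 78.9 CPM in Control and at 27.2 against 87.8 CPM in DOPAC. For these 3 members, the lower level of mature cells was seen in both libraries.

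T cells gave results that rested on few cells. In regulatory T cells Hspa1a had 5 UMIs in 73 Control cells and 29 in 59 DOPAC cells, and Hspa1b 6 and 30. The pair went from 14.2 to 254 CPM, a log2 ratio of 4.06. However, 1 DOPAC cell held 42 of the 59 UMIs and 8 cells held all of them, and without the top 3 cells the log2 ratio was 1.11 with 8 Control and 5 DOPAC UMIs (an interval of 0.52-fold to 7.03-fold). After thinning, 1 of 59 DOPAC cells had 5 or more UMIs of the inducible set. Hsph1 was also higher, at 39.9 and 107 CPM. The 3 members higher compare with 18.9% of 6066 genes, and 1 lower, Hspd1, with 17.6%. Hspd1 had 20 UMIs in these DOPAC cells and a ratio interval that held 1 (0.37-fold to 1.03-fold). Its log2 ratio of -0.60 became 0.31 after thinning.

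In other T classes the pair was not of one direction. CD4 T cells without Foxp3 had 58 Hspa1a UMIs in Control and 9 in DOPAC, at 51.5 and 27.9 CPM, and Dnajb1 at 86.1 and 40.2 CPM. Hsph1 was higher there, at 52.4 and 92.9 CPM. With the gate minimums raised by 1 UMI, Hspa1a and Hsph1 reversed in these cells, to log2 ratios of 0.29 and -0.93, and without the top cell of each library Hspa1b had 0.27. That made 2 members higher, Hsph1 and Hspd1, against 21% of 6858 genes, and 3 lower against 19.1%. In the remaining T cells that matched no narrower gate, Dnajb1 was lower, at 92.0 and 54.0 CPM, and Hspa1b, Hsph1 and Hspe1 were higher. Hspa1b, at 53.4 and 84.8 CPM, had a log2 ratio of 0.66 that was -0.48 with gates applied to thinned cells. These 3 members compare with 15.5% of 11273 genes, and the 1 lower with 18.9%. In CD8 T cells outside the naive-like, checkpoint-positive and cycling gates, Hspa1b was higher, at 18.2 and 46.5 CPM, while Hspa1a was at 49.6 and 37.1 CPM. The log2 ratio of Hspa1b was 1.29, and it was -1.40 with gates applied to thinned cells. This was 1 member higher against 13.8% of 8217 genes and 0 lower against 20.1%. In these CD8 T cells haemoglobin genes were at 6260.4 CPM in Control and listed with 0 UMIs in DOPAC. With haemoglobin genes taken out of the total, all 32 calls of the 12 classes stayed past 1.5-fold.

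Immediate-early genes were lower in these T classes as in NK cells. They summed to 5254 CPM in Control and 1796 CPM in DOPAC CD4 T cells, with 10 of 12 measured genes lower. The remaining T cells had 4744 and 1782 CPM, and regulatory T cells 3283 and 1616 CPM, with 9 of 13 genes lower in each. In regulatory T cells Hspa1a and Hspa1b were higher while the immediate-early genes were lower. In Arg1 macrophages 2 of 13 were higher and 1 was lower.

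The other 4 classes described here had 40 to 49 cells in 1 of the libraries. Naive-like CD8 T cells are those with Lef1, Tcf7 or Dapl1. They had 270 UMIs of Hspa1b in 351 Control cells (97.5 CPM) and 0 in 45 DOPAC cells. By the counting interval of the ratio, Control was at least 5.25-fold higher, and 3 UMIs in DOPAC would have been 14.99 CPM. Plasmacytoid dendritic cells, which make type I interferon, had 388 UMIs of Hspa1a in 428 Control cells (78.4 CPM) and 0 in 48 DOPAC cells. By the same interval Control was at least 4.37-fold higher, and 3 UMIs in DOPAC would have been 14.5 CPM. Of the 388 UMIs, 3 Control cells held 49.2%, and such clustering in few cells is not covered by the interval. In checkpoint-positive CD8 T cells (Pdcd1, Havcr2 or Lag3), the pair stood at 237 CPM in 44 Control cells and 72.2 CPM in 1285 DOPAC cells. There 1 Control cell held 66 of 106 UMIs, and the log2 ratio went from -1.73 to -0.50 without the top cell of each library and to 1.64 without 3. In cycling CD8 T cells 1 Control cell held 76 of 127 UMIs, and the log2 ratio went from -1.27 to -0.14 and 1.29. In these last CD8 classes the direction depended on 1 to 3 cells. The same number of cells is a much larger share of 44 or 49 Control cells than of 1285 or 919 DOPAC cells, which moves such ratios towards DOPAC. The pair's log2 ratio in naive-like cells was -3.17, from 3 UMIs in 3 DOPAC cells, which is too few to leave cells out.

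**Figure D4:**
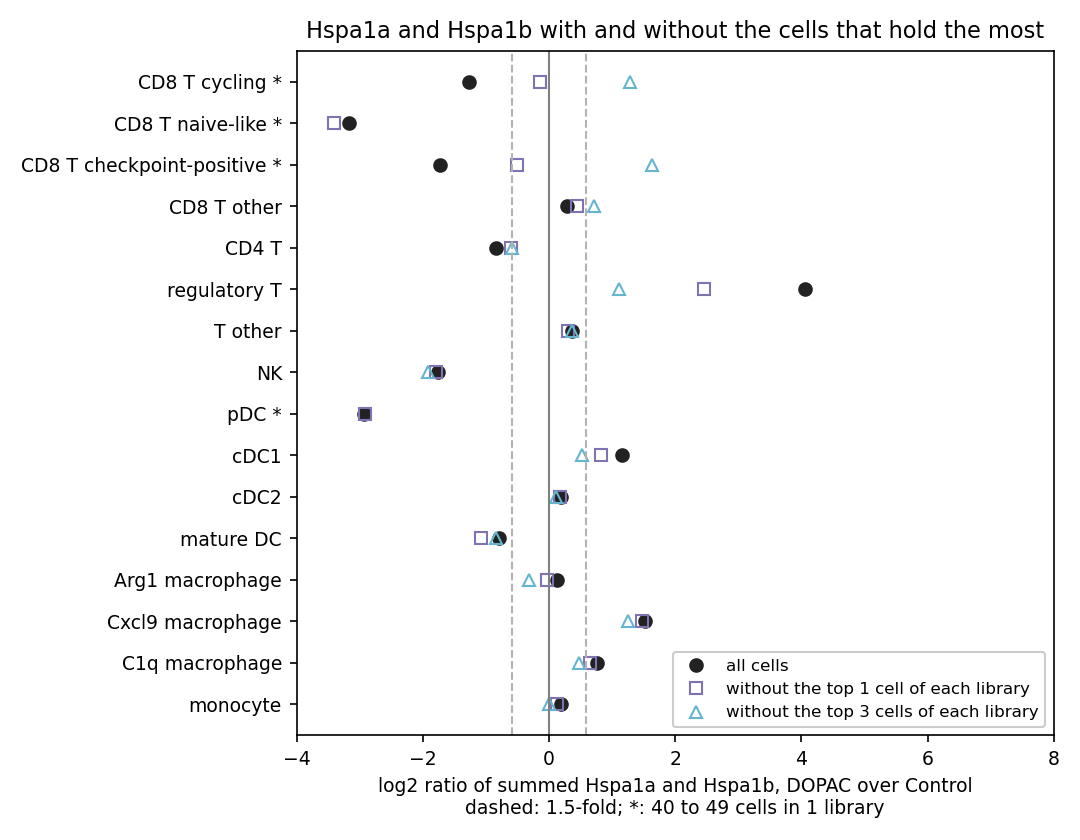
Log2 ratio of DOPAC over Control for the sum of Hspa1a and Hspa1b in each class with all cells, without the 1 cell and without the 3 cells that hold most of these UMIs in each library (no point where a library is left with 0 UMIs). NK cells stay between -1.92 and -1.76 and Cxcl9 macrophages between 1.25 and 1.52, while checkpoint-positive CD8 T cells run from -1.73 to 1.64.

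Of the 7 classes whose summed Hspa1a and Hspa1b passed 1.5-fold (4 higher and 3 lower), all 7 stayed past it without the top cell of each library and 4 without the top 3. Those 4 were NK cells, Cxcl9 macrophages, regulatory T cells and mature dendritic cells. Of these, the last 2 had intervals that then held 1. Mature dendritic cells were left with 8 DOPAC UMIs (0.21-fold to 1.01-fold) and regulatory T cells with 5 (0.52-fold to 7.03-fold). Over the alternative processing settings, the log2 ratio of Hspa1b alone in mature dendritic cells ranged from -0.76 to 2.66. The others, cDC1, C1q macrophages and CD4 T cells, went to log2 ratios of 0.53, 0.48 and -0.58. In these classes the library with fewer cells loses the larger share of its cells.

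Hsph1 and Dnajb1 had lower correlations with the HSP70 pair across classes than Hspa8 had. Over the 24 class-by-library points of the 12 classes, Pearson's r of log2(CPM + 1) with the summed pair, after subtracting each library's mean, was 0.34 for Hsph1 and 0.23 for Dnajb1, against 0.77 for Hspa8 and 0.63 for Hsp90aa1. Within a library, over 12 points, Dnajb1 had -0.08 in Control and 0.53 in DOPAC, and Hsph1 0.42 and 0.27. Hspa8 had 0.63 and 0.89, and Hsp90aa1 0.38 and 0.84, so that Hsp90aa1 was not above Hsph1 in Control. The points share their library and depth. In Control, Dnajb1 was at 108 CPM in NK cells and 49.8 CPM in monocytes, the reverse of the order of Hspa1a, at 70.9 and 255 CPM. In DOPAC, Dnajb1 was at 50.7 CPM in NK cells and 48.1 CPM in monocytes. Hsph1 was higher in Arg1 macrophages than in monocytes, at 103 against 50.2 CPM in Control and 102 against 44.4 CPM in DOPAC.

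Hsp90aa1, Hspa8 and Hsp90ab1 lay close in the libraries. Hsp90aa1 had log2 ratios from -0.24 in NK cells (540.1 and 458 CPM) to 0.46 in cDC1 (527 and 726 CPM). It was at 901 CPM in Control and 994 CPM in DOPAC Arg1 macrophages. Hspa8 had log2 ratios from -0.41 in the remaining CD8 T cells (654 and 492 CPM) to 0.15 in Arg1 macrophages (1167 and 1298 CPM). In each library Hspa8 was over 1000 CPM in Arg1, C1q and Cxcl9 macrophages, in monocytes and in cDC1, and at or under 769 CPM, the level of DOPAC regulatory T cells, in the T and NK classes compared.

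Hsp90ab1 was a little lower in the DOPAC library in most classes. Its log2 ratio was below 0 in 11 of 12 classes, with the interval of the ratio below 1 in 10 of them, and its median was -0.30. The range ran from -0.56 in C1q macrophages (1461 and 988 CPM) to 0.15 in CD4 T cells (1019 and 1130.0 CPM). In no class did it reach 1.5-fold. Over all CD8 T cells together it was at 1457 CPM in Control and 1513 CPM in DOPAC, where 919 of 2669 cells were cycling, against 49 of 557.

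**Figure D5:**
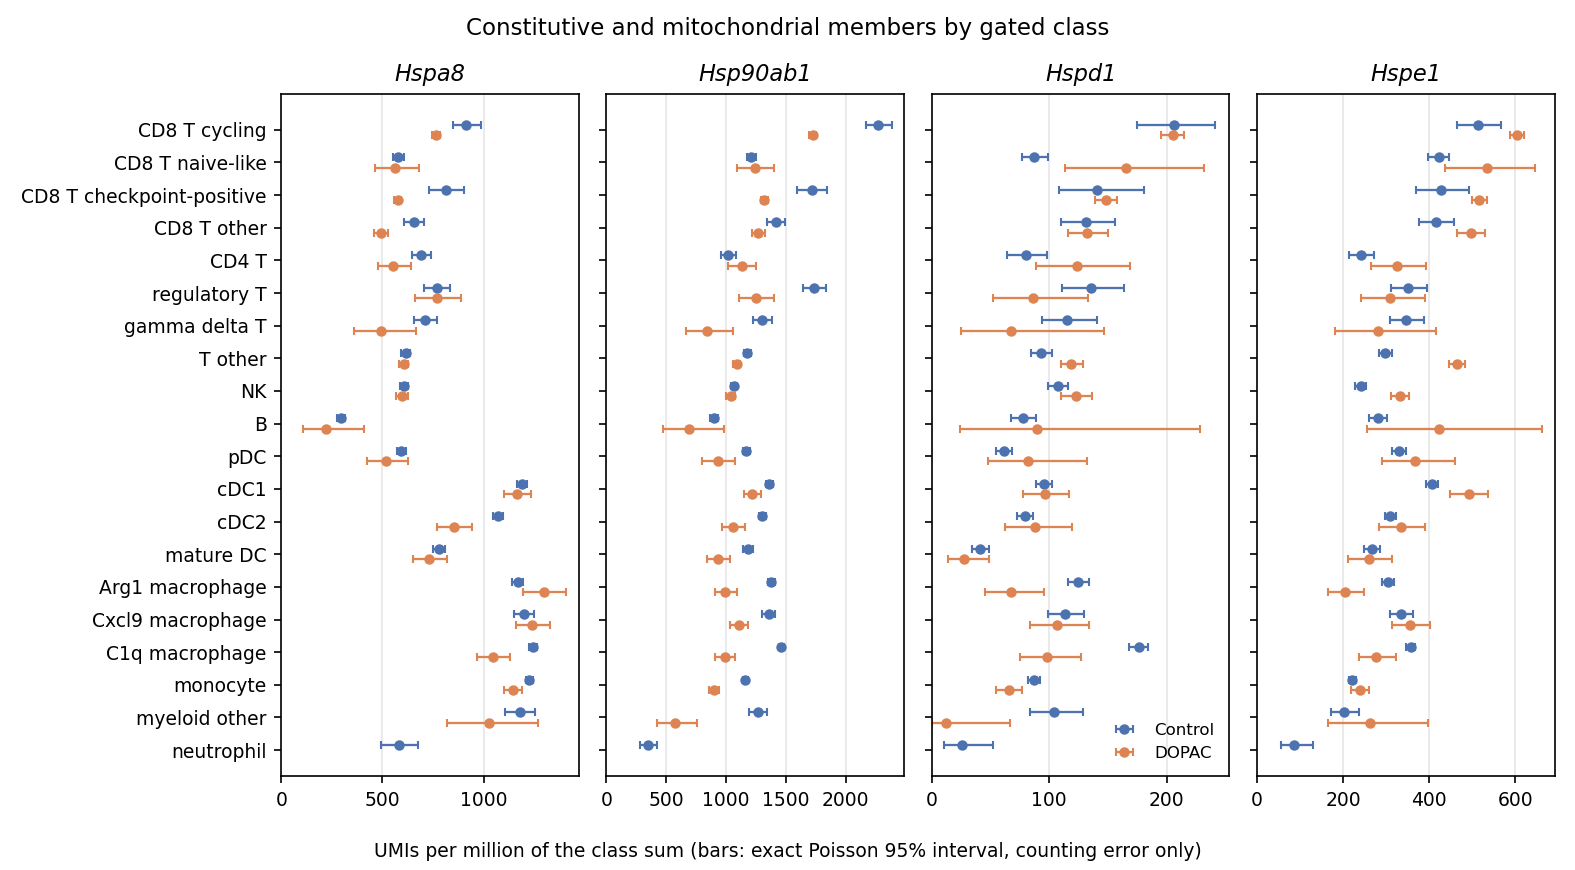
CPM of Hspa8, Hsp90ab1, Hspd1 and Hspe1 (panels) for each class (rows), with 1 point per library and exact Poisson 95% intervals as bars. Cycling CD8 T cells stand highest for Hsp90ab1, at 2273 CPM in Control and 1724 CPM in DOPAC, and Hspa8 is higher in Arg1, Cxcl9 and C1q macrophages than in lymphocytes.

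Hspd1 passed 1.5-fold in 4 of the 12 classes and Hspe1 in 1. Hspd1 was lower in Arg1 macrophages, at 125 CPM in Control and 67.3 CPM in DOPAC, in C1q macrophages, at 176 and 98.3 CPM, and in regulatory T cells, at 135 and 85.9 CPM. In CD4 T cells it was higher, at 79.9 and 124 CPM. Hspe1 was higher in the remaining T cells, at 298 and 466 CPM, and its ratio was above 1 in 8 of 12 classes. Over all CD8 T cells, Hspd1 was at 119 and 175 CPM (1.47-fold higher, 1.35 to 1.61) and Hspe1 at 435 and 558 CPM. Over all macrophages and monocytes, Hspd1 was at 126 and 78.1 CPM, 1.62-fold lower in DOPAC. Over all T and NK classes, whose makeup differed between the libraries, Hspe1 was at 317 and 508 CPM, 1.60-fold higher.

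Dividing CD8 T cells had the highest levels of Hsp90ab1, Hspd1 and Hspe1 of the classes described, in both libraries. For Hspe1 in DOPAC, 18 of 18 neighbouring pairs in the order of classes had a ratio interval that held 1. The top rank of Hspe1 there was therefore not told apart from the next class. For Hspd1 it was 17 of 19 neighbouring pairs in Control and 17 of 18 in DOPAC. Hspd1 was at 206 CPM in 49 Control and 205 CPM in 919 DOPAC cycling cells, and Hspe1 at 514 and 605 CPM. Within the DOPAC library, cycling cells had more Hsp90aa1 than checkpoint-positive cells, at 773 against 511 CPM (1.51-fold, 1.45 to 1.58). In Control, with 49 and 44 cells, they were at 789 and 794 CPM (0.99-fold, 0.87 to 1.14). In DOPAC cycling cells also had more Hspd1 (1.38-fold), Hspa8 (1.33-fold), Hsp90ab1 (1.31-fold) and Hspe1 (1.17-fold). In Control the ratios were 1.45-fold for Hspd1, 1.32-fold for Hsp90ab1 and 1.20-fold for Hspe1, with intervals above 1, and 1.12-fold (0.99 to 1.28) for Hspa8. The other inducible members did not differ beyond counting error in DOPAC: Hspa1a was at 29.8 against 32.4 CPM, Hspa1b at 41.6 against 39.7 CPM, Dnajb1 at 53.1 against 55.1 CPM and Hsph1 at 82.7 against 83.4 CPM, each with a ratio interval that held 1. In Control Hspa1b was 0.51-fold (0.34 to 0.74) in cycling cells, at 69.97 against 139 CPM. The DOPAC cycling cells were also deeper, with a median of 8482 UMIs against 4558.

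The wider chaperone network was described from lists of genes by role, counted over the classes where a gene had at least 20 UMIs, beside 17.4% of all class-by-gene pairs higher and 17.8% lower. Of the 96 pairs of the cytosolic chaperonin subunits, which fold actin and tubulin, 1 was higher and 46 were lower in DOPAC. Cct7 was lower in 12 of 12 classes with a median log2 ratio of -0.90, Cct5 in 10 (-0.76) and Cct3 in 8 (-0.62). Of the 167 pairs of HSP70 and HSP90 co-chaperones, 7 were higher and 27 lower. Among these, Cdc37, which brings kinases to HSP90, and Stub1, a ubiquitin ligase for chaperone clients, were each lower in 7 classes, with medians of -0.67 and -0.65. Hspa4, an exchange factor of the HSP110 kind, was lower in 4 (-0.46).

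The other inducible genes were also mixed. Of the 131 pairs of heat-inducible co-chaperones and small heat shock proteins, 17 were higher and 30 lower. Fkbp4, a partner of HSP90 at steroid receptors, was lower in 10 of 12 classes (-1.05), Ahsa1, an activator of HSP90, was lower in 5 (-0.46), and Hspa4l was higher in 8 (0.96). Of 36 pairs of heat shock factors and regulators, 5 were higher and 7 lower. Hsf1 was lower in 6 and higher in 1 (-0.48), and Hsbp1, a binding protein of HSF1, was higher in 2 (0.09). In the mitochondrial list 1 of 75 pairs was higher and 18 lower, with Grpel1 lower in 4 classes and Hspa9 and Clpp in 1 each. In the endoplasmic reticulum list 22 of 204 pairs were higher and 30 lower. There Hsp90b1 was higher in 5 (0.47), Herpud1 lower in 8 (-0.86) and Dnajc3 lower in 5 (-0.50). Of 155 pairs of immediate-early genes 13 were higher and 70 lower, and Junb was lower in 10 classes (-1.20), Jun in 8 (-1.04) and Jund in 11 (-0.90).

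Depth and mitochondrial share were set beside the members within each library. The inducible set was higher in the deepest than in the shallowest tertile of cells in 4 of 12 Control and 1 of 12 DOPAC classes. The constitutive pair was higher in the deepest tertile in 10 of 12 classes of each library, and Hspd1 with Hspe1 in 11 Control and 10 DOPAC classes. Gated barcodes over the mitochondrial limit, which were left out, had 420 CPM of the inducible set in Control against 419 CPM in the cells kept, and 331 against 287 CPM in DOPAC. Members within this sum differed: in Control, Hsph1 was at 101 CPM (81.7 to 123) over the limit and 60.3 CPM in kept cells, and Dnajb1 at 38.2 CPM (26.8 to 53.0) and 67.2 CPM. In DOPAC, Hsph1 was at 99.3 (65.5 to 145) and 75.6 CPM, and Dnajb1 at 55.2 and 54.0 CPM. By mitochondrial share among kept cells, the inducible set was higher in the highest than in the lowest tertile in 3 of 12 Control and 7 of 12 DOPAC classes. The constitutive pair was so in 9 and 11 classes, and Hspd1 with Hspe1 in 10 and 12. In cDC1 of the DOPAC library the tertile of middle depth had 260 CPM against 810 and 713 CPM in the others.

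Some genes had a level pattern like that of the members across the 24 class-by-library points, among 3384 genes measured well enough. Among the most like the summed Hspa1a and Hspa1b were Plekhm3 (r = 0.86), Ccl6 (0.85), Hmox2 (0.85) and Bach1 (0.85). The most like Hsp90ab1 were Eif3c (0.83), Aurkaip1 (0.82), Atp5j2 (0.80), Ola1 (0.79) and Ran (0.79). Among the most like the summed Hspd1 and Hspe1 were Polr2l (0.89), Micos10 (0.88), Snrpd1 (0.86) and Rps2 (0.86).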

How the data were processed

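The deposited matrices hold UMI counts per gene and barcode and name Cell Ranger 7.0.1, per the file headers. GRCm38 comes from the submitters' processing notes. Intron counting, annotation and kit chemistry are not given in the sources used here. Barcodes passed with a minimum of 500 UMIs and 200 genes and a mitochondrial limit of 10% (8444 Control, 10095 DOPAC). Scrublet in scanpy 1.11.5 then removed 339 Control barcodes at its automatic threshold. In DOPAC that threshold marked 0%, so the 815 highest scores, the expected rate, were removed. Cells were classed by fixed marker UMI minimums, and a cell that passed more than 1 lineage was left out as mixed. Counts were summed per class and library, with 1 library per group and no test. CPM, exact Poisson, Clopper-Pearson and ratio intervals used scipy 1.17.1 and numpy 2.4.6 in Python 3.11.15. The summed ratio was tested on simulated sums with independent Poisson counts. These lack the clustering of UMIs in few cells, so they do not bear on it. Of each list the text names the 3 genes with at least 20 UMIs in every class compared and the largest absolute median log2 ratio (only 2 qualified among the heat shock factors), and for each pattern the 5 genes with the highest r, of which some are not reported here. Ddit3, whose symbol is on more than 1 row, was left out. Promoters were read from RefSeq, and alignments used biopython 1.88. The members and lists were chosen with earlier results of these data known. Samples with 1 library per group measure only these libraries.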

Additional observations from a re-analysis of the deposited data

Results flagged for a closer look

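Some members were past 1.5-fold in opposite directions in different classes of the same libraries, and the difference between the classes was not tested. The log2 ratio of DOPAC over Control of Hspa1a was 4.06 in regulatory T cells and -1.75 in NK cells. That of Hspa1b was 3.89 in regulatory T cells and -1.75 in NK cells. In regulatory T cells 1 DOPAC cell held 42 of the 59 UMIs of both genes, and with the top 3 cells of each library left out the log2 ratio of their sum was 1.11, while in NK cells it was -1.92. Dnajb1 had 1.05 in Cxcl9 macrophages and -1.08 in NK cells, with the first value reversed after thinning. Hsph1 had 1.44 in regulatory T cells and -0.74 in cDC2, the latter from 12 DOPAC UMIs. Hspd1, the gene of mitochondrial HSP60, had 0.65 in CD4 T cells and -0.85 in Arg1 macrophages.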

How the results depend on the processing

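The counts of 20 higher and 12 lower member-by-class pairs moved with the threshold and the classes. At 2.0-fold they were 11 and 5, with classes of at least 100 cells 14 and 5, and with classes of at least 40 cells, chosen after seeing the data, 21 and 27 over 16 classes. The settings that left out top cells, capped UMIs or took haemoglobin out of the total were also chosen after seeing the data. The other settings and these gave 14 to 21 higher and 11 to 14 lower pairs. Of the 32 called pairs, 14 kept their call in every one of the 14 alternatives for log2 ratios that could be computed, and 51 of the 76 other pairs stayed within 1.5-fold in all of them. In NK cells Hspa1a ranged from -1.93 to -1.01 and Hspa1b from -2.38 to -1.22, and in Cxcl9 macrophages from 1.06 to 1.96 and from 1.33 to 2.32. Some log2 ratios reversed, and the cause was not tested. With gate minimums raised by 1 UMI, in CD4 T cells Hspa1a had 0.29 and Hsph1 -0.93. With gates on thinned cells, Hspa1a had 1.66 in mature dendritic cells, Hspa1b -1.40 in the remaining CD8 T cells and -0.48 in the remaining T cells, Dnajb1 0.67 and Hsph1 -0.10 in CD4 T cells, and Hsph1 -0.40 in cDC1. With counts from thinned cells, Hspa1a had 0.16 in CD4 T cells, Dnajb1 -0.25 in Cxcl9 macrophages and Hspd1 0.31 in regulatory T cells. With thinned cells capped at 5 UMIs of a member these were 0.16, -0.25 and 0.31, and Hspa1b had -0.026 in the remaining CD8 T cells. With the mean CPM per cell, Hspd1 had 0.14 in regulatory T cells, and with a mitochondrial limit of 5% Hsph1 had -0.31 in CD4 T cells. Without the top 1 and 3 cells Hspa1b had 0.27 and 0.50 in CD4 T cells. The gates with raised minimums left 11 classes, without regulatory T cells. Those on thinned cells left 8, without regulatory T cells and the Arg1, Cxcl9 and C1q macrophages. In these 8 classes, 8 of 18 called pairs stayed past 1.5-fold the same way. The ranges given for Cxcl9 macrophages do not include that setting. The share of genes past 1.5-fold in either direction ran from 28.7 to 40.2% over the classes with at least 20 UMIs, 37.9 to 60.2% with no minimum and 20.8 to 33.3% with at least 100. Of the 5 genes most like Hsp90ab1, 2 were also among the top 5 without centring. Thinned to 500 UMIs, NK cells with a UMI of Hspa1a or Hspa1b were 4.51% in Control and 1.92% in DOPAC.

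No paired analysis was possible because each group has 1 library. The mice cannot be separated, so differences between mice, libraries and treatments cannot be told apart. The median DOPAC cell has 3592 UMIs against 9320 in Control, and gates that need several UMIs pass fewer shallow cells. Hspa1a and Hspa1b UMIs sit in few cells, which counting intervals do not cover.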
